A study of Mus musculus with 4 samples.

Results

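The fibroblast growth factor (FGF) genes described here are the ligands *Fgf2*, *Fgf7*, *Fgf9*, *Fgf10* and *Fgf18*, the receptors *Fgfr1*, *Fgfr2*, *Fgfr3* and *Fgfr4*, and the feedback inhibitor *Spry2*. They were taken by gene symbol, from a list chosen with earlier results of these data known. All 10 were found among the 25819 rows of the expression table. Expression was measured by RNA-Seq in the urogenital sinus (UGS), the embryonic tissue from which the prostate and urethra form. Each of the 4 libraries held RNA pooled from whole UGS of 3 male mouse embryos, either wild type or homozygous for a GFP knock-in that removes *Tbx18* function (Tbx18 GFP/GFP), at embryonic stage E16.5 or E18.5. The wild type embryos were littermates, the mutant carried the null allele in all its tissues, and all mice were on a B6C3-F1 hybrid background. Prostate buds grow out of the UGS epithelium at about these stages, and the comparison asks which transcripts differ between mutant and wild type UGS at each.

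FGFs are secreted proteins that bind receptor tyrosine kinases on neighbouring cells together with heparan sulfate, and the receptors pass the signal on through the Ras and MAP kinase relay. In the UGS, as in other branching organs, *Fgf10* and *Fgf7* are made in the mesenchyme and bind the epithelial splice form of *Fgfr2*, whereas ligands such as *Fgf9* act on mesenchymal receptor forms. Loss of *Fgf10* is known to impair the growth of prostate buds. Values summed per gene, as here, do not separate the epithelial from the mesenchymal splice form.

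Values are FPKM, fragments per kilobase of transcript, scaled to the mapped reads of the library, so that levels can be compared between genes. With 1 library per genotype and stage there is no replicate error, no test was made within a stage, and every difference below compares pools of RNA. From the FPKM that a single read gives on olfactory receptor genes, the libraries held about 29.0 M to 64.0 M mapped reads, fewest in E18.5 wild type. The ratios of the 10 genes within a stage or a genotype that are described singly are given with 95% exact binomial counting intervals from the reads so estimated, which cover counting error only and not the spread between embryos. The E18.5 wild type library stands apart from the other 3. Of the 13644 genes that reached 1 FPKM in all 4 libraries, it was the lowest of the 4 in 64.1%. The median log2 ratio of mutant over wild type was 0.29 at E18.5 and 0.01 at E16.5, over genes that reached 1 FPKM in both. *Tbx18* itself was at 3.47 FPKM in wild type against 2.50 in mutant UGS at E16.5, then 3.16 against 2.93 at E18.5, but transcript of the knock-in allele is not separated from intact transcript. The UGS regulators *Shh*, *Foxa1*, *Hoxa13* and *Hoxd13* all reached 1 FPKM in every library. Summed markers of other cell types ran from 82.7 to 94.1 FPKM for endothelium, from 17.7 to 20.2 FPKM for leukocytes and from 97.6 to 173 FPKM for neurons and glia. They ran from 321 to 773 FPKM for skeletal muscle and from 613 to 3656 FPKM for smooth muscle. A sum can hide opposite differences, as for the leukocyte genes *Csf1r* and *Cd68*, with E18.5 log2 ratios of 0.96 and -0.81.

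Promoter windows of 300 bases around the transcript start, mostly upstream of it, from RefSeq, build GRCm38.p6, matched 9 of the 10 genes, and *Fgfr1* had no entry. One window is shown for each of the 4 genes that differed by at least 1.5-fold between genotypes at E18.5, so that the genes were picked by that ratio. Capitals mark each CpG dinucleotide.
*Fgf7*, chr2:126034408-126034707, plus strand: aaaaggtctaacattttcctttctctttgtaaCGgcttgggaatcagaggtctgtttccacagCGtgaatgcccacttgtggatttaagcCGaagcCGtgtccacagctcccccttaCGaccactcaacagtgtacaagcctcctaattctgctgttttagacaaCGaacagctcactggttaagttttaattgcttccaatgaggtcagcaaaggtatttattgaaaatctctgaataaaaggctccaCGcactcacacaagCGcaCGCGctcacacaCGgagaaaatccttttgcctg
*Fgf9*, chr14:58072436-58072735, plus strand: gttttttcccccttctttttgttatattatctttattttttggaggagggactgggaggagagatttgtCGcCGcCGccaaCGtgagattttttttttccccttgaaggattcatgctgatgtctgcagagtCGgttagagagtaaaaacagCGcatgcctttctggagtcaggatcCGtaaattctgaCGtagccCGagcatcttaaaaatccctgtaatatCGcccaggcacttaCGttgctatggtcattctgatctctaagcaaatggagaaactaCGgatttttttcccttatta
*Fgf18*, chr11:33147351-33147650, minus strand: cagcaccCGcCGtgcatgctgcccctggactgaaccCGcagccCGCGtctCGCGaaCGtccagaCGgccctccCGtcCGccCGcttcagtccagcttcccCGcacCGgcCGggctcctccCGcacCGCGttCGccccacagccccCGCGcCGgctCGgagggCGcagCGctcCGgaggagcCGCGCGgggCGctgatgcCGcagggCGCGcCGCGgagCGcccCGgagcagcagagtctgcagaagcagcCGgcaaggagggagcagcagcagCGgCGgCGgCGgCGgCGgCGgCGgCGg
*Fgfr3*, chr5:33721474-33721773, plus strand: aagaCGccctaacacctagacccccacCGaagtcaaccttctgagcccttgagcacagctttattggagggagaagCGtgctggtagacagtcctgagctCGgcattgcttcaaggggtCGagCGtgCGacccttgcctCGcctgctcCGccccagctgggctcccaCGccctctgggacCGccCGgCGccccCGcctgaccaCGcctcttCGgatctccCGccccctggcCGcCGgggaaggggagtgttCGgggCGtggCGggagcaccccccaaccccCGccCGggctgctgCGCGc
The first 2, of genes lower in the E18.5 mutant, had 45.7% and 42.7% GC with 11 and 12 CpG. The windows of *Fgf18* and *Fgfr3*, which were higher in the E18.5 mutant, had 78.7% and 69.7% GC with 47 and 26 CpG, and a second start of *Fgfr3* had 73% GC with 30 CpG. The windows not shown had 43.7% GC for *Fgfr2*, 60.7% for *Fgf10*, 62.7% for both *Fgf2* and *Spry2*, and 65.3% for *Fgfr4*. The relation of promoter composition to the ratios was not tested. The median over all 32851 windows was 52.7% GC with 7 CpG. The T-box core GGTGTG, searched on both strands, was in none of the 9 genes' windows, and in 19.0% of all windows. The ETS core CCGGAA, the site type bound by transcription factors downstream of FGF receptors, was in the windows of *Fgfr4* and *Spry2* and in 14.9% of all windows. A match or its absence describes these letters in this window and nothing of binding.

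*Fgfr1* and *Fgfr2* were the most abundant of the 10 genes, each several times the level of any FGF ligand. *Fgfr1*, the main receptor of mesenchyme (chromosome 8, 26629244 to 26686186), had 40.3 FPKM in E16.5 wild type, 40.1 FPKM in E16.5 mutant, 25.4 FPKM in E18.5 wild type and 34.5 FPKM in E18.5 mutant UGS. *Fgfr2* (chromosome 7, 137305965 to 137410322) had 37.2, 42.0, 30.9 and 31.0 FPKM in the same order. E18.5 wild type was thus the lowest library for *Fgfr1*, while both E18.5 libraries were alike and low for *Fgfr2*. *Fgfr3*, which restrains growth plate cartilage and is also expressed in urothelium (chromosome 5, 34064373 to 34079713), had 11.0, 8.82, 3.58 and 7.54 FPKM. Its highest library was 3.08 times the lowest, the widest span of the 10 genes, against a median span of 1.49 over the 13644 genes. *Fgfr4*, a receptor known from embryonic muscle precursors and liver (chromosome 13, 55254179 to 55270120), had 4.64, 3.12, 2.96 and 2.78 FPKM, with the E16.5 wild type library above the other 3. *Spry2*, an inhibitor of the Ras relay that FGF signalling itself induces (chromosome 14, 106291164 to 106296036), had 18.2, 17.0, 11.2 and 15.6 FPKM, lowest in E18.5 wild type.

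**Figure D1:**
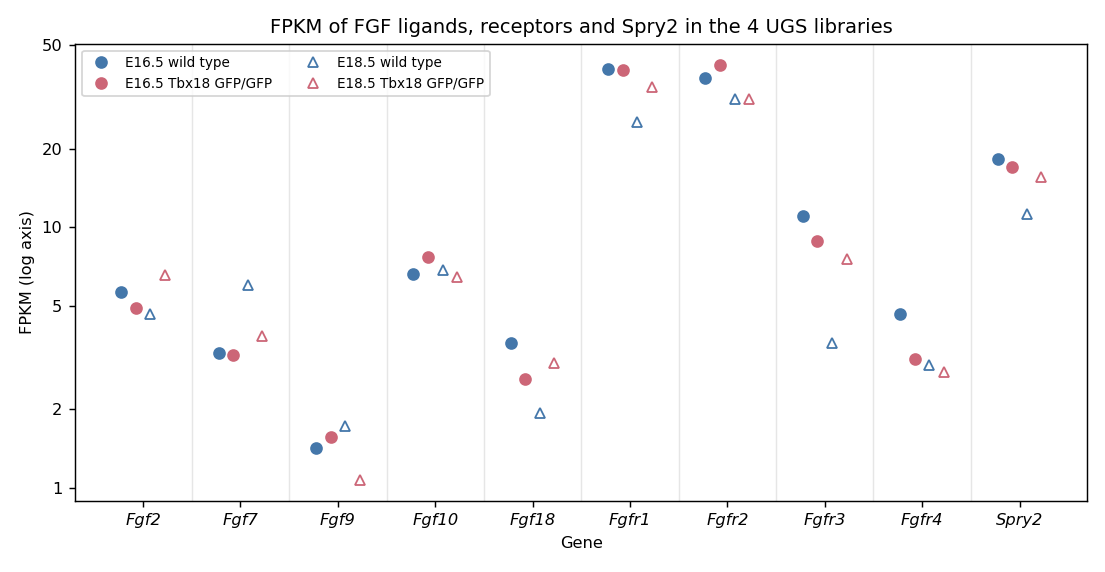
FPKM of the 10 genes (vertical, log axis) in each of the 4 UGS libraries, with filled circles for E16.5, open triangles for E18.5, blue for wild type and red for Tbx18 GFP/GFP. Each point is 1 library of 3 pooled embryos, and *Fgfr3* spans the widest range, from 3.58 to 11.0 FPKM.

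Among the ligands, *Fgf10* and *Fgf2* were the most abundant in 3 of the 4 libraries, with *Fgf7* above *Fgf2* and next to *Fgf10* in E18.5 wild type, and *Fgf9* was the least abundant of the 5 in all 4. *Fgf10* (chromosome 13, 119503506 to 119581380) had 6.58 FPKM in E16.5 wild type, 7.70 FPKM in E16.5 mutant, 6.83 FPKM in E18.5 wild type and 6.42 FPKM in E18.5 mutant UGS. It varied least of the 10 genes, by 1.20 times from lowest to highest. *Fgf7*, also called keratinocyte growth factor (chromosome 2, 125860394 to 125916921), had 3.29, 3.23, 5.99 and 3.83 FPKM in the same order. The E18.5 wild type value of *Fgf7* stood above the other 3, which lay close together. *Fgf2*, a ligand without a classical signal peptide (chromosome 3, 37247575 to 37303752), had 5.62, 4.89, 4.65 and 6.55 FPKM. Its deposited span of 56178 bases is shorter than the 61630 bases of the RefSeq gene, so reads from the missing part may not be counted. The same holds for *Fgf9*, with 40035 of 42184 bases, and *Fgf18*, with 29971 of 30431. *Fgf18*, a ligand of skeletal and stromal mesenchyme (chromosome 11, 33017430 to 33047400), had 3.60, 2.61, 1.93 and 3.02 FPKM, lowest in E18.5 wild type. *Fgf9* (chromosome 14, 58691523 to 58731557) had 1.41, 1.56, 1.72 and 1.07 FPKM, lowest in the E18.5 mutant. The estimated reads behind these ligand values ran from 43 for *Fgf2* in E18.5 wild type to 1673 for *Fgf10* in E16.5 mutant. Another row of the table overlapped *Fgf2* and one overlapped *Fgf7*, each with at most 0.205 FPKM. Positions are those of the deposited table, whose genome build is not given in the sources used here, and they differ from the GRCm38 positions of the windows above.

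Shares within a library do not depend on scaling between libraries. The E18.5 trend with GC content of the transcripts, described below, is not removed from them. *Fgfr1* has 57.0% GC, *Fgfr2* 51.5% and *Fgf7* 37.9%. Of the summed FPKM of the 4 receptors, *Fgfr1* held 43.3% in E16.5 wild type, 42.6% in E16.5 mutant, 40.4% in E18.5 wild type and 45.5% in E18.5 mutant UGS. *Fgfr2* held 39.9%, 44.7%, 49.2% and 40.8%. The ratio of *Fgfr2* to *Fgfr1* was therefore above 1 in E16.5 mutant (1.05) and E18.5 wild type (1.22) and below 1 in E16.5 wild type (0.923) and E18.5 mutant (0.897). The share of *Fgfr3* was 11.8%, 9.38%, 5.70% and 9.94%, and that of *Fgfr4* 4.98%, 3.32%, 4.71% and 3.67%, lower in the mutant at both stages. Of 18 secreted FGF ligands listed, 6 reached 1 FPKM in each library: the 5 ligands above and *Fgf1*, with 3.00, 2.85, 4.59 and 2.66 FPKM. The other 12 were at most at 0.599 FPKM (*Fgf6* in E16.5 wild type), and *Fgf8* was listed at 0 in all 4 libraries. *Fgf10* held 26.1%, 32.2%, 25.9% and 26.1% of the ligand sum, and *Fgf7* 13.1%, 13.5%, 22.7% and 15.6%. The ratio of *Fgf10* to *Fgf7*, which bind the same receptor form, was 2.0 and 2.38 at E16.5 but 1.14 and 1.67 at E18.5, in wild type and mutant respectively.

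**Figure D2:**
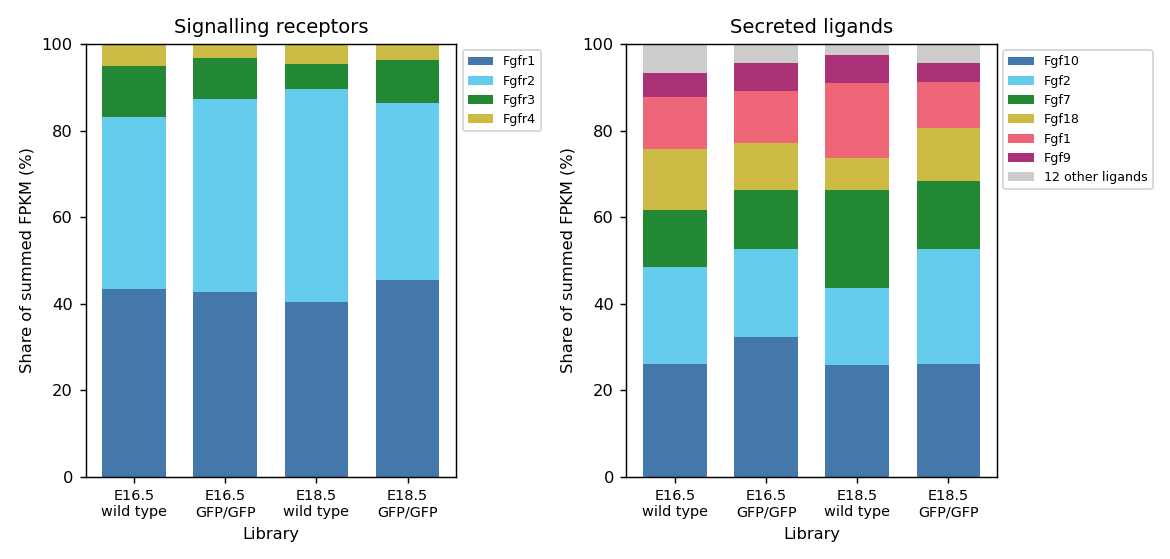
Share of the summed FPKM (%) held by each of the 4 signalling FGF receptors (left) and by the secreted FGF ligands (right) in each library. *Fgfr1* and *Fgfr2* fill most of each receptor bar, and the *Fgf7* segment is widest in E18.5 wild type, at 22.7% of the ligand sum. The E18.5 trend with GC content is not removed from these shares.

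At E16.5 the mutant and wild type UGS differed little in these genes. None of the 10 reached a 1.5-fold difference, which 4.15% did of the 14761 genes that reached 1 FPKM in one library or both. The median log2 ratio of mutant over wild type was -0.06 for the 10 genes and 0.01 for all genes. *Fgfr4* came closest, at 4.64 FPKM in wild type against 3.12 in the mutant, 1.49-fold lower (log2 ratio -0.57, counting interval -0.73 to -0.42). *Fgf18* was next, at 3.60 and 2.61 FPKM (log2 ratio -0.46, interval -0.81 to -0.13), followed by *Fgfr3*, at 11.0 and 8.82 FPKM (-0.32, interval -0.43 to -0.21). *Fgf10* and *Fgfr2* were slightly higher in the mutant, with log2 ratios of 0.23 (interval 0.13 to 0.33) and 0.17 (0.12 to 0.23). *Spry2* had a log2 ratio of -0.10 (-0.19 to -0.01). The intervals of *Fgf2*, *Fgf7*, *Fgf9* and *Fgfr1* included 0, so no difference was detectable with the reads so estimated. That of *Fgfr1* was narrow, from -0.05 to 0.04, and that of *Fgf2* rests on a short transcript length of 535 bases.

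Marker lists differed in direction at E16.5, where 54.2% of all genes were higher in the mutant. All 8 smooth muscle markers were lower, with a median log2 ratio of -0.94, as were all 5 of neurons and glia (-0.26). All 5 endothelial markers were higher (0.14), as were the 3 leukocyte markers that reached 1 FPKM (0.22) and 8 of 10 fibroblast markers (0.07). Of 11 skeletal muscle markers, 10 reached 1 FPKM and all 10 were at least 2-fold lower in the mutant, with a median log2 ratio of -1.24. At E18.5 the 10 markers split, with 4 higher and 6 lower in the mutant and a median log2 ratio of -0.35. The 3 past 1.5-fold higher were led by the actin *Acta1* (2.04), and the 2 past 1.5-fold lower were the myosin *Myh3* (-0.80) and titin, *Ttn* (-1.08). The summed level of the list was 773 FPKM in E16.5 wild type against 321 in E16.5 mutant, then 386 against 759 at E18.5, of which *Acta1* alone made 110 and 455 FPKM, where *Fgfr4* had 2.96 and 2.78 FPKM. The part of muscle in the *Fgfr4* difference was not tested. In whole tissue, fewer cells of a type and less RNA per cell cannot be told apart. Epithelial markers had a median log2 ratio of -0.13 at E16.5, with 4 of 10 higher and 6 lower, and none past 1.5-fold. The epithelial splicing factors *Esrp1* and *Esrp2*, which set the *Fgfr2* splice form, had log2 ratios of -0.18 and -0.51, beside 0.17 for *Fgfr2*.

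At E18.5 the FGF genes split into those higher and those lower in the mutant. *Fgf7* and *Fgf9*, 2 of the 10 genes, were at least 1.5-fold lower, against 7.6% of the 14733 genes that reached 1 FPKM in one library or both. *Fgf18* and *Fgfr3* were at least 1.5-fold higher, against 33.2% of all genes. The 4 genes past 1.5-fold are thus about the share of all genes that passed it, 40.8%. *Fgf7* had 5.99 FPKM in wild type against 3.83 in the mutant, 1.56-fold lower (log2 ratio -0.65, interval -0.84 to -0.45). *Fgf9* had 1.72 and 1.07 FPKM, 1.61-fold lower (-0.69, interval -1.22 to -0.16), from about 59 and 66 reads. Both ligands were also lower by more than the median gene, with log2 ratios of -0.93 and -0.97 relative to it, past 1.5-fold downward with 16% of all genes. For both, E18.5 wild type held the highest value of the 4 libraries.

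*Fgfr3* had 3.58 FPKM in E18.5 wild type against 7.54 in the mutant, 2.1-fold higher (log2 ratio 1.07, interval 0.87 to 1.28). It was the only one of the 10 past 2-fold, which 15.1% of all genes passed upward. Relative to the median gene its log2 ratio was 0.78, past 1.5-fold upward with 19.7% of all genes. *Fgf18* had 1.93 and 3.02 FPKM, 1.56-fold higher (0.64, interval 0.15 to 1.16), or 0.35 relative to the median. *Fgfr1*, *Spry2* and *Fgf2* were higher by less than 1.5-fold, with log2 ratios of 0.45 (0.38 to 0.51), 0.48 (0.34 to 0.61) and 0.49 (-0.02 to 1.05), or 0.16, 0.19 and 0.20 relative to the median. *Fgf10*, *Fgfr2* and *Fgfr4* had intervals that included 0, with log2 ratios of -0.09, 0.00 and -0.09 that became -0.38, -0.29 and -0.38 relative to the median. The paper names *Fgfr2* among the genes down-regulated at E18.5, whereas the deposited values were 30.9 FPKM in wild type and 31.0 in the mutant. The source of that discrepancy was not tested. Against the E16.5 wild type library in place of the E18.5 one, a choice made after the values were seen and one that mixes stage with genotype, the E18.5 mutant had log2 ratios of 0.22 for *Fgf7*, -0.40 for *Fgf9*, -0.26 for *Fgf18* and -0.55 for *Fgfr3*. Of these 4, *Fgf9* alone kept its direction, and the counting intervals of *Fgf9* (-0.88 to 0.05) and *Fgf18* (-0.59 to 0.07) included 0. In that comparison 1 of the 10 genes, *Fgfr4*, passed 1.5-fold, against 6.47% of all genes.

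Marker lists also differed between genotypes at E18.5, in both directions. The summed level of 8 smooth muscle markers was 1338 FPKM in wild type against 3656 in the mutant, with all 8 higher. The sum of 10 epithelial markers was 467 against 606, with 8 higher, 4 past 1.5-fold higher and 2 past 1.5-fold lower, against 69.5% of all genes higher. The epithelial median log2 ratio was 0.19, or -0.09 relative to the median gene and -0.39 with the length and GC trend described next subtracted. Among the UGS regulators, *Hoxd13* had 67.4 and 36.8 FPKM and *Foxa1* had 29.99 and 15.3, both lower in the mutant as *Fgf7* and *Fgf9* were, while *Shh* had 18.4 and 15.02 and *Hoxa13* 15.8 and 15.9. Of the 6 UGS markers listed, 5 were lower in the mutant, with a median log2 ratio of -0.70. Among them 4 were past 1.5-fold lower, against 7.6% of all genes. Their summed level was 146 FPKM in wild type against 92.0 in the mutant. The part of any of these markers in the differences of the FGF genes was not tested.

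**Figure D3:**
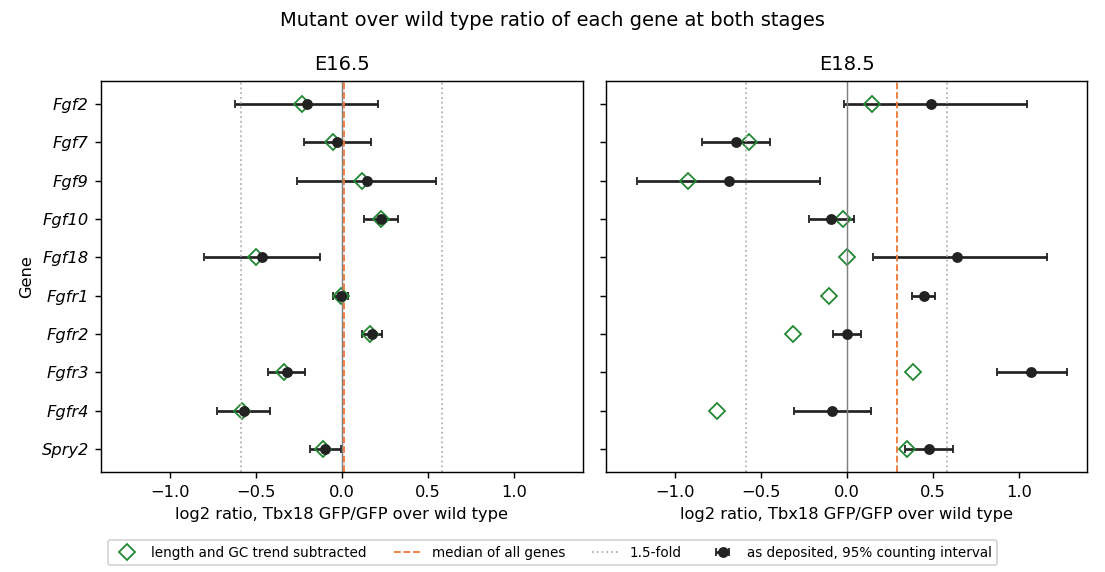
Log2 ratio of Tbx18 GFP/GFP over wild type FPKM for each gene at E16.5 (left) and E18.5 (right), with black points and bars for the deposited values and their 95% counting intervals, green diamonds for the values with a length and GC trend subtracted, a dashed line at the median of all genes and dotted lines at 1.5-fold. At E18.5 the points run from -0.69 for *Fgf9* to 1.07 for *Fgfr3*, and the diamonds of *Fgfr3*, *Fgf18*, *Fgfr1* and *Fgfr4* lie well to the left of their points.

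The E18.5 ratios of all genes rose with the GC content of the transcripts. Genes that reached 1 FPKM in both E18.5 libraries were put in 5 equal bins by GC content, and the median log2 ratio was 0.00 in the lowest bin and 0.75 in the highest. At E16.5 the same medians were 0.01 and 0.02. For E18.5 over E16.5, binned likewise, they were -0.0019 and -0.83 in wild type and -0.014 and -0.12 in the mutant. *Fgf7* and *Fgf10*, with 37.9% and 41.6% GC, were in the lowest bin, and *Fgfr1*, *Fgfr3* and *Fgfr4*, with 57.0%, 58.6% and 58.8%, in the highest. *Fgf7*, *Fgf9* and *Fgfr4* lay below the middle 50% of the genes in their bins, *Spry2* just above it and the other 6 within it. With a smooth trend on transcript length and GC content subtracted, the E18.5 log2 ratio was 0.39 for *Fgfr3*, 0.35 for *Spry2*, 0.00 for *Fgf18* and -0.10 for *Fgfr1*. It was -0.93 for *Fgf9*, -0.57 for *Fgf7* and -0.32 for *Fgfr2*, and that of *Fgfr4* went from -0.09 to -0.76. Only *Fgf9* and *Fgfr4* were past 1.5-fold in that setting, both lower in the mutant. *Fgfr4* thus lay below wild type at both stages with the trend subtracted, at -0.58 for E16.5.

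**Figure D4:**
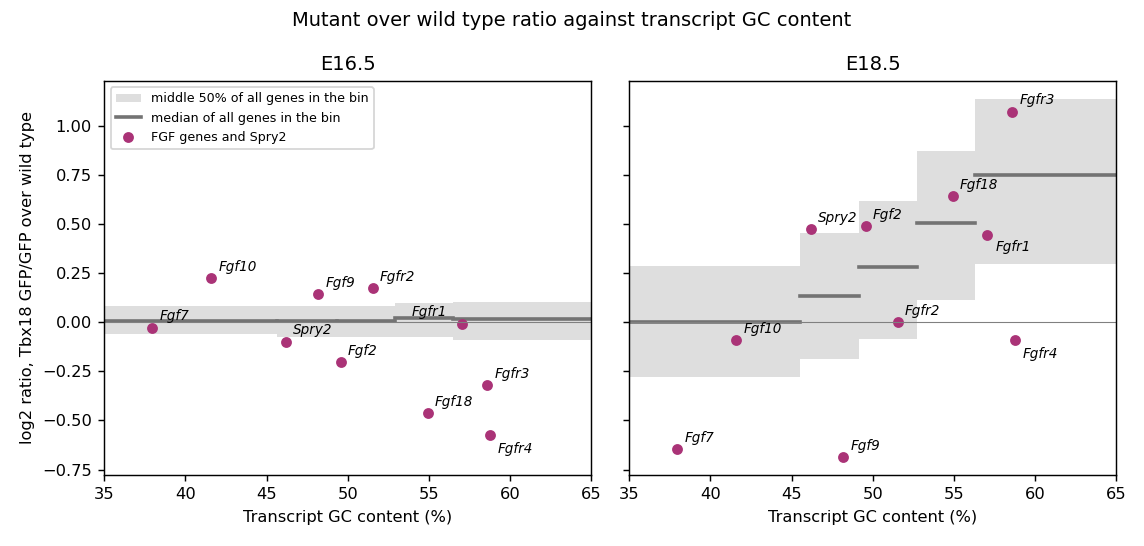
Log2 ratio of Tbx18 GFP/GFP over wild type against the GC content of the transcripts (%), at E16.5 (left) and E18.5 (right). Purple points are the 10 genes, grey bars give the median and the middle 50% of all genes in each of 5 equal GC bins, and the outermost bars are drawn only to the edge of the axis. The grey medians are flat at E16.5 and climb from 0.00 to 0.75 at E18.5, where *Fgf7*, *Fgf9* and *Fgfr4* lie below the grey bars.

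From E16.5 to E18.5 the same genes were compared within each genotype, and both comparisons share libraries with those above. In the mutant none of the 10 genes passed 1.5-fold between stages, against 4.68% of all genes. The largest stage difference there was that of *Fgf9*, from 1.56 to 1.07 FPKM (log2 ratio -0.55, interval -1.02 to -0.09), followed by *Fgfr2*, from 42.0 to 31.0 FPKM (-0.44, interval -0.50 to -0.38). In wild type 6 of the 10 passed 1.5-fold, against 42.7% of all genes, with *Fgf7* higher and *Fgf18*, *Fgfr1*, *Fgfr3*, *Fgfr4* and *Spry2* lower at E18.5. *Fgf7* had 3.29 FPKM at E16.5 and 5.99 FPKM at E18.5 (log2 ratio 0.86, interval 0.67 to 1.06), and 6.8% of all genes were at least 1.5-fold higher. Its log2 ratio was 1.20 relative to the median gene and 0.74 with the length and GC trend subtracted. *Fgfr3* had 11.0 and 3.58 FPKM, 3.08-fold lower (log2 ratio -1.62, interval -1.82 to -1.43), or -1.29 relative to the median and -0.82 with the trend subtracted. Of all genes 35.9% were at least 1.5-fold and 16.8% at least 2-fold lower. *Fgfr1* and *Fgfr4*, with log2 ratios of -0.67 and -0.65, had 0.01 and 0.15 with the trend subtracted, so their direction between the wild type stages depended on that step.

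The rest of the pathway was followed with lists of its other parts. At E16.5, 4.15% of all genes passed 1.5-fold, and at that share lists of this size would hold few such genes or none. At E16.5 the 20 genes of heparan sulfate synthesis and carriage, which hold FGFs at the cell surface, had a median log2 ratio of 0.00 and none passed 1.5-fold. None of the 18 relay genes found in the table, of 19 listed, passed 1.5-fold either (median -0.02). Of 10 feedback inhibitors that reached 1 FPKM only *Dusp5*, a phosphatase of ERK, passed, at 1.28 FPKM in wild type against 0.820 in the mutant (-0.64). The ETS factors *Etv1*, *Etv4* and *Etv5*, transcriptional targets of FGF signalling, had log2 ratios from -0.05 to 0.15. *Fgfbp1*, a carrier that releases FGFs from the matrix, was past 1.5-fold lower, at 3.28 FPKM in wild type against 2.07 in the mutant (-0.66). None of the 4 intracellular FGF homologous factors passed, and *Fgf14* had the highest ratio (0.47).

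At E18.5 the same lists spread widely in both directions, as all genes did, of which 69.5% were higher in the mutant and 33.2% by at least 1.5-fold. Of the 20 heparan sulfate genes, 17 were higher in the mutant and 4 of them by at least 1.5-fold (median log2 ratio 0.45), led by the glypican *Gpc1* with 14.1 FPKM in wild type against 37.0 in the mutant (1.39). The sulfatase *Sulf2* had the lowest ratio of that list (-0.49). Of the 18 relay genes, 6 were at least 1.5-fold higher and 1 lower (median 0.27). These ran from the adaptor *Frs2*, which links FGF receptors to Ras, with 21.1 and 13.3 FPKM (-0.67), to its relative *Frs3*, with 0.556 and 2.07 FPKM (1.89, counting interval 1.12 to 2.70). Of the 10 feedback inhibitors, 2 were at least 1.5-fold higher and none lower (median 0.33), with *Dusp5* at 0.622 and 1.20 FPKM (0.94, interval 0.43 to 1.48), the opposite direction to E16.5. The shares of the heparan sulfate and feedback lists past 1.5-fold higher were below that of all genes, and that of the relay genes was about the same. After subtraction of the length and GC trend, the medians of the heparan sulfate, relay and feedback lists were 0.17, -0.04 and 0.18. In that setting *Gpc1* had a log2 ratio of 0.76 and *Frs3* 0.93. *Etv4* was higher in the mutant, with 3.54 and 6.63 FPKM (0.91), and *Etv1* lower, with 16.9 and 10.3 FPKM (-0.72). *Fgf1* had the lowest ratio of the secreted ligands, with 4.59 and 2.66 FPKM (-0.79), and *Fgf12* that of the intracellular factors (-0.63). The median over all genes that reached 1 FPKM in one library or both was 0.31, close to that of the relay and feedback lists. The smooth muscle markers had a median of 1.16, after -0.94 at E16.5.

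**Figure D5:**
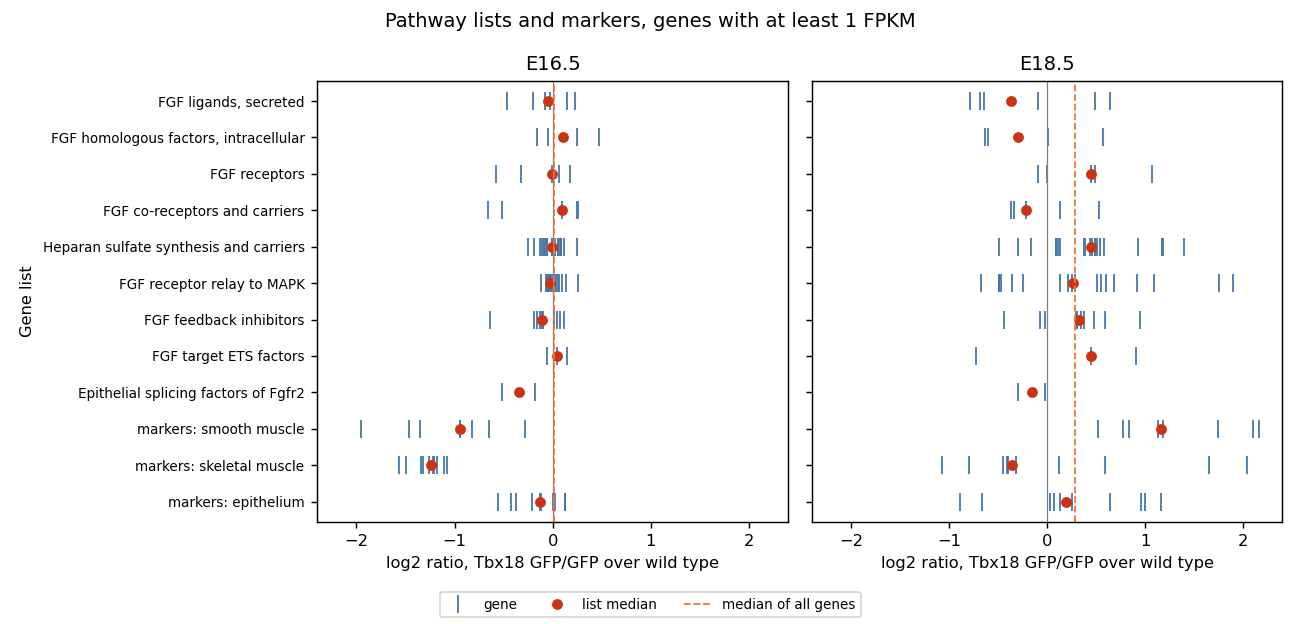
Log2 ratio of Tbx18 GFP/GFP over wild type for genes that reached 1 FPKM in one library or both, in lists of FGF pathway parts and 3 sets of cell markers (rows), at E16.5 (left) and E18.5 (right). Blue ticks are genes, red points list medians and the dashed line the median of all genes. Medians of the pathway lists lie close to 0 at E16.5, except that of the *Fgfr2* splicing factors at -0.35, and most of these lists spread at E18.5. The muscle lists lie far to the left at E16.5.

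Genes with a like pattern over the 4 libraries were found by the root mean square difference of centred log2 FPKM, among 8630 genes that reached 5 FPKM in every library. *Fgfr2* lay nearest to *Epcam*, a marker of epithelium (difference 0.02), followed by the T-box gene *Tbx3* and *Supt3h*, and 216 genes lay within 0.1. The epithelial markers as a set did not share that pattern. At E16.5 *Epcam* was higher in the mutant, but 6 of the 10 listed were lower. At E18.5 their log2 ratios ran from -0.89 for *Trp63* to 1.16 for *Cldn7*. *Fgf9* had 25 genes within 0.1, among them *AA465934* and *Cldn11*, a claudin of tight junctions (difference 0.04 for each). *Fgfr3* had only 6 genes within 0.1, led by *Hes6*, *Vstm2l* and *Gpc2*, and *Fgfr4* had 8, led by *Elavl3*, *Epha3* and *Tpbg*. For *Fgf7*, with 68 genes, these were *Tcea3*, *Tmtc3* and *Sgpp1*. *Fgfr1* and *Spry2* had the commonest patterns, with 1059 and 1108 genes within 0.1. Likeness over 4 libraries, 1 of which stands apart, is a description and no sign of shared control.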

How the data were processed

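RNA-Seq of whole UGS was made as 4 libraries, 1 per genotype and stage, each of RNA pooled from 3 male embryos. Per the labels, CASAVA 1.8.2, Trimmomatic 0.30, TopHat2 2.1.0 and Cufflinks 2.2.1 were used, and the values deposited by the authors are FPKM for 25819 rows with no further scaling stated. The genome build and annotation are not given in the sources used here. The members and lists were chosen with earlier results of these data known.

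Ratios were taken without a pseudocount for genes that reached 1 FPKM in one library or both, the study's filter, and counted at 1.5-fold and 2-fold. With 1 library per group no test between genotypes within a stage could be made, and a fit over both stages was not run. Mapped reads were estimated from 15 to 27 olfactory receptor genes per library at the FPKM of 1 read. Reads per gene used the median length of its coding transcripts in GENCODE M21, so that short annotated transcripts make the intervals wider, as for *Fgf2* at 535 bases. Length and GC content were found for 93.7% of rows with at least 1 FPKM and for all 10 members, and a lowess trend (span 0.3) on both was subtracted as an alternative. Other alternatives were column sums, medians or 75th percentiles made equal, pseudocounts of 0.1 and 1, no filter, and a minimum of 5 FPKM. Named genes were all members, the largest rise and fall of each list at each stage, genes past 1.5-fold in one direction at both stages, and the 3 genes most alike in pattern, though some of these genes are not reported here. The log2 ratios and the subtraction of the length and GC trend were tested on simulated counts. The depth estimate, the counting intervals and the search for like patterns were not. The software was scipy 1.17.1 and statsmodels 0.14.6 under Python 3.11.15, with tables in pandas 2.3.3 and numpy 2.4.6 and plots in matplotlib 3.10.9.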

Additional observations from a re-analysis of the deposited data

Results flagged for a closer look

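As deposited, *Fgfr3*, *Fgf18* and *Spry2* had lower values in mutant than wild type UGS at E16.5 and higher ones at E18.5. Their counting intervals left out 0 at both stages on that scale. With sums made equal, the E18.5 log2 ratios were 0.65, 0.22 and 0.05, and relative to the median gene 0.78, 0.35 and 0.19. The E18.5 log2 ratio exceeded the E16.5 one by 1.39 for *Fgfr3*, 1.10 for *Fgf18* and 0.57 for *Spry2*. Over all genes the ratios also shifted upward, with 54.2% higher in the mutant at E16.5 and 69.5% at E18.5. The medians of all genes were 0.01 and 0.31, and the share of all genes that changed direction was not counted. The difference between stages was not tested, for want of replicate libraries. With the length and GC trend subtracted at E18.5 the log2 ratios were 0.39, 0.00 and 0.35, against -0.34, -0.50 and -0.11 at E16.5. All 3 genes had their lowest value in the E18.5 wild type library, as did 64.1% of genes at 1 FPKM in every library. Against E16.5 wild type, a choice made after the values were seen, the E18.5 mutant had log2 ratios of -0.55, -0.26 and -0.22.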

How the results depend on the processing

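For mutant over wild type at E16.5 and for the mutant between stages, all 10 members kept the sign of their log2 ratio. This held under each of the 6 planned scalings, trends and pseudocounts. A pseudocount added to both values cannot change a sign, however. At E16.5 the median and 75th percentile scalings moved each log2 ratio by only 0.013 and 0.00046, so they could hardly change one. At E18.5, 8 members kept their sign, the exceptions being *Fgfr1* and *Fgfr2*. Between the wild type stages 6 did, the exceptions being *Fgf2*, *Fgfr1*, *Fgfr2* and *Fgfr4*, of which *Fgfr1* and *Fgfr4* turned to 0.0093 and 0.15 with the length and GC trend subtracted. At E16.5, 1 member in place of 0, *Fgfr4*, passed 1.5-fold with sums made equal and relative to the median. The E18.5 median log2 ratio of the members, 0.22, became -0.20 with sums made equal, -0.065 relative to the median, -0.038 with 75th percentiles made equal, -0.064 with the trend subtracted and 0.45 over the 7 members with at least 5 FPKM. The 4 members past 1.5-fold became 2 with the trend subtracted, 1 with a pseudocount of 1 and 2 with the 5 FPKM minimum. The 1 member past 2-fold, *Fgfr3*, gave way to 2 lower ones, *Fgf7* and *Fgf9*, with sums made equal, where *Fgfr3* had 0.65, and to 0 relative to the median, with 75th percentiles made equal, with the trend subtracted and with a pseudocount of 1. Against E16.5 wild type, an alternative chosen after seeing the data, the E18.5 median was -0.24, with 1 member past 1.5-fold and 0 past 2-fold, and *Fgf7*, *Fgf18* and *Fgfr3* turned to 0.22, -0.26 and -0.55. Between the wild type stages the median of -0.46 became 0.032 with the trend subtracted. The 6 members past 1.5-fold there became 3 with each scaling and 2 with the trend subtracted, and the 1 past 2-fold, lower, became 2 with each scaling, 1 higher and 1 lower, and 0 with the trend subtracted. The cause of these changes was not tested. No paired analysis was possible because each group has 1 library, and no replicate could be left out. By these estimates counting error limits *Fgf9*, *Fgf2* and *Fgf18* most, with 43 to 59 reads in E18.5 wild type. The reads of *Fgf2* rest on a transcript length of 535 bases, and its intervals are too wide if its transcripts are longer.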
